A study of Mus musculus with 17 samples.

Results

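The serum miRNA assays rno-miR-352 (named in the rat), mmu-miR-186-3p and mmu-miR-421-3p (named in the mouse) read lower in Autotaxin-transgenic mice than in wild-type mice and were described mouse by mouse. They are 3 of the 357 miRNA assays on the panel, and they were picked by name because their levels lay below wild type in earlier results of these data. That contrast is therefore a description here, without a test. Serum came from 17 mice in 3 groups: 7 transgenic AT-ATX mice with spontaneous tumors, 7 transgenic AT-ATX mice without tumors, and 3 wild-type mice of the FVB/N strain, labelled healthy. The AT-ATX transgene encodes Autotaxin, a secreted phospholipase whose product, lysophosphatidic acid, acts on cells as a signal. The labels give neither the promoter of the transgene nor the age of the mice nor the tumor type, and they name the strain of the wild-type mice only. Every sample is labelled as 1 mouse. The numbers 77 and 85 occur in animal labels of both transgenic groups, with no key to what they stand for. For tumor replicate 5 the animal label holds a question mark.

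MicroRNAs are short RNAs cut from a hairpin, and each arm of the hairpin can give a mature strand. A strand finds its target messenger RNAs mainly through its seed, bases 2 to 8. In serum they are protected by proteins, lipoproteins and vesicles, and much of what is measured there is released by blood cells. miR-186 is encoded within the gene Zranb2, which makes a zinc-finger splicing protein. miR-421 is encoded within Ftx, a long noncoding RNA of the X-inactivation centre that acts on Xist, and the miR-374b hairpin lies beside it. miR-352 was named in the rat, and its sequence there resembles let-7, the family that holds back growth-promoting genes such as those of RAS and HMGA2. Which RNA the assay of that name read in mouse serum was not tested.

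The mature sequences are shown because miR-186-3p and miR-421-3p were set against strands of the same hairpin or transcript, and miR-352 against the let-7 family and miR-1961. Capitals mark the seed, and all are from RefSeq on the build GRCm38.p6, written 5′ to 3′. Of the 317 mouse-named assays, 260 matched a mature RefSeq entry by name, and of the 3 members 1 did, miR-186-3p. Both arms of the Mir186 hairpin are on the panel, at chr3:157544324-157544345 (plus strand) for the 3p arm and chr3:157544285-157544306 for the 5p arm, inside the span of Zranb2.
miR-186-3p: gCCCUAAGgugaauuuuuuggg
miR-186-5p: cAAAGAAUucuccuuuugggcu
For miR-421 the hairpin at chrX:103572921-103572996 (minus strand) is given. Capitals mark miR-421-5p, the annotated 5p arm, and miR-421-3p comes from the other side of the loop. The hairpin of miR-374b lies 63 bases away on the same strand, and both lie inside the span of Ftx.
Mir421 hairpin: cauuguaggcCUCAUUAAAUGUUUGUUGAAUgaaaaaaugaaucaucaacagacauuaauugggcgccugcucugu
miR-374b-5p: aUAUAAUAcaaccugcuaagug
The seed of let-7 is shared on the panel by the 8 let-7 5p strands, by miR-98-5p and by the shorter miR-1961, which is among the 3 assays nearest to miR-352 over the mice. The sequence of miR-352 itself was not used here, so no seed is given for it.
let-7d-5p: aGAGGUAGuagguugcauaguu
let-7f-5p: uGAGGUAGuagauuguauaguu
miR-1961: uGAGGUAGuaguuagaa
No other matched assay shares the seed of miR-186-3p, miR-186-5p or miR-374b-5p.

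The deposited values are quantification cycles (Ct), at which the PCR signal crosses a threshold, so a lower Ct means more template. The level used throughout is the panel mean, over the 252 miRNAs with a value in each of the 17 sera, minus the Ct of the assay. It is in cycles on a log2 scale, and folds are 2 to the power of a difference, which assumes that template doubles at each cycle. A level is relative to the panel and not an amount per volume. Serum levels also cannot tell fewer releasing cells from less release per cell. The panel mean Ct ranged from 27.95 to 31.67 in tumor mice, 28.14 to 30.50 in tumor-free mice and 27.00 to 29.98 in wild-type mice. The 6 red blood cell miRNAs were detected in every serum, as were the 4 hepatocyte miRNAs, so miRNAs known from blood cells and liver were present throughout. The 4 hepatocyte miRNAs were all below 0 in tumor against wild-type mice (median difference -2.01). Over all assays 45.9% were below 0, with a median of 0.19. In limma 3 of the 4 fell, where 4.14% of all assays did, miR-802-5p (-2.26, SE 0.48, adjusted p = 0.00776), miR-194-5p (-2.56, SE 0.63, adjusted p = 0.019) and miR-192-5p (-1.57, SE 0.39, adjusted p = 0.0199). In tumor-free against wild-type mice their median was -0.45, against 0.03 over all assays. None of the 4 passed there, where 0.592% of all assays did. miR-223-3p, abundant in neutrophils and platelets, rose in tumor against wild-type mice (1.96, SE 0.56, adjusted p = 0.0333 in limma), where 4.14% of all assays passed as higher. The part of these cells in the members' levels was not tested.

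miR-352 was lower in every transgenic serum than in any wild-type serum. In tumor mice its level was -5.02, -2.76, -2.12, -0.09, -0.79, -2.10 and -3.20 (replicates 1 to 7). Tumor-free mice had -0.28, -1.45, -2.94, -2.91, -1.41, -2.49 and -1.46. Wild-type mice had 0.14, 2.71 and 1.50. The gap between the groups was small at its narrowest: the highest transgenic value, tumor replicate 4, lay 0.23 below the lowest wild-type value, wild-type replicate 1. Tumor mice averaged -2.30 ± 1.62 (SD, n = 7), tumor-free mice -1.85 ± 0.97 (n = 7) and wild-type mice 1.45 ± 1.28 (n = 3). In cycles, miR-352 was reached at a mean Ct of 32.1 ± 2.32 in tumor, 31.2 ± 1.34 in tumor-free and 26.9 ± 1.52 in wild-type mice. The difference in level was -3.75 (SE 0.84, 13.4-fold lower) in tumor and -3.30 (SE 0.84, 9.82-fold lower) in tumor-free mice against wild type. Of the 338 assays tested, 5 (1.48%) had every transgenic value below every wild-type value, namely miR-352, miR-101a-3p, miR-196b-5p, miR-7a-1-3p and the rat assay of miR-802-5p (the other 4 were named after their values were seen). miR-352 had the lowest difference of all 338 assays in tumor-free against wild-type mice and the third lowest in tumor against wild-type mice. Its mean level was the 193rd highest on the panel in tumor mice, the 176th in tumor-free mice and the 76th in wild-type mice.

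**Figure D1:**
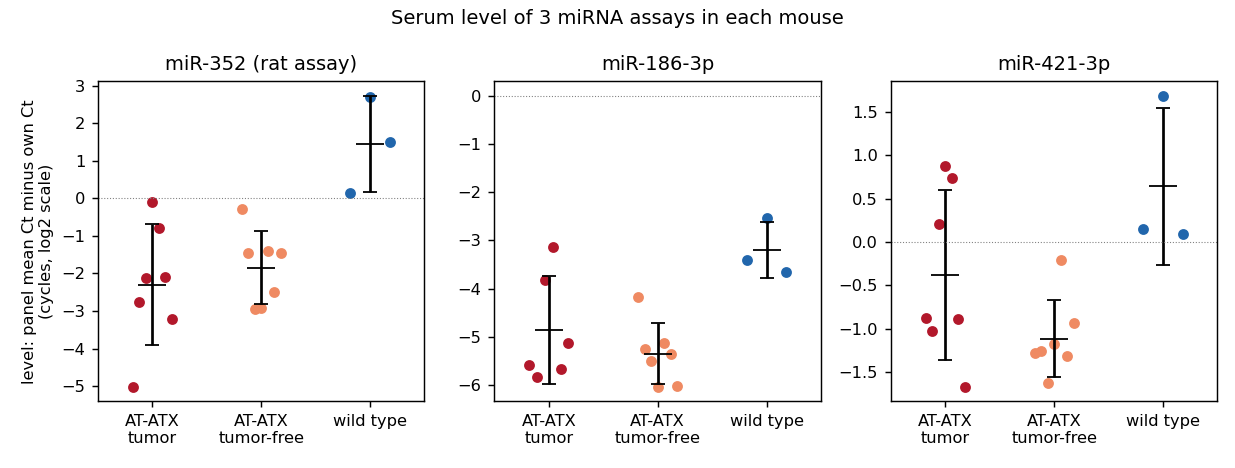
Level of miR-352, miR-186-3p and miR-421-3p in each mouse (y axis, mean Ct of the panel minus own Ct, in cycles on a log2 scale) in AT-ATX tumor, AT-ATX tumor-free and wild-type serum. Points are mice, the black bar is the mean and the whiskers are 1 SD. For miR-352 no transgenic point reaches the lowest wild-type point at 0.14. Wild-type values are reached by tumor replicate 5 for miR-186-3p and by tumor replicates 3, 4 and 5 for miR-421-3p.

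miR-186-3p, the minor arm of its hairpin, stood lower in all tumor-free sera than in any wild-type serum, but not in all tumor sera. Tumor mice had -5.58, -5.83, -3.82, -3.14, -5.66 and -5.13 (replicates 2 to 7), and the cell of tumor replicate 1 was empty. At a Ct of 37 that serum would have a level of -5.33. Its level was -4.17, -5.26, -5.50, -6.03, -5.14, -5.35 and -6.01 in tumor-free mice, and -3.42, -2.54 and -3.65 in wild-type mice. Tumor replicate 5 was above 2 of the wild-type mice, and the other 5 detected tumor sera were below all of them. Means were -4.86 ± 1.12 (n = 6) in tumor, -5.35 ± 0.63 (n = 7) in tumor-free and -3.20 ± 0.58 (n = 3) in wild-type mice. The difference from wild type was -1.66 (SE 0.60, 3.16-fold lower) in tumor mice and -2.15 (SE 0.59, 4.43-fold lower) in tumor-free mice. Over all assays, 3.85% had every detected tumor value below wild type and 5.92% had every tumor-free value below it. This assay read late: its Ct was above 35 in 3 of 6 detected tumor sera, 4 of 7 tumor-free sera and 0 of 3 wild-type sera. No Ct in the table reaches 37, so the sera with least of this miRNA were read near the end of the recorded range.

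miR-421-3p lay below all wild-type sera in every tumor-free mouse and in 4 of 7 tumor mice. Its level was -0.87, -1.03, 0.20, 0.88, 0.74, -0.89 and -1.67 in tumor mice. It was -1.28, -1.26, -1.63, -1.17, -0.21, -1.31 and -0.94 in tumor-free mice. Wild-type mice had 0.15, 1.69 and 0.09. Tumor replicates 3, 4 and 5 reached wild-type values, 3 of the others lay among the tumor-free mice and replicate 7 lay just under them. Means were -0.38 ± 0.98 (n = 7) in tumor, -1.12 ± 0.45 (n = 7) in tumor-free and 0.64 ± 0.91 (n = 3) in wild-type mice. The difference from wild type was -1.02 (SE 0.56, 2.03-fold lower) for tumor mice and -1.76 (SE 0.56, 3.38-fold lower) for tumor-free mice. The first was -0.50 and the second -1.23 without wild-type replicate 2, the highest of the wild-type sera for all 3 members.

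**Figure D2:**
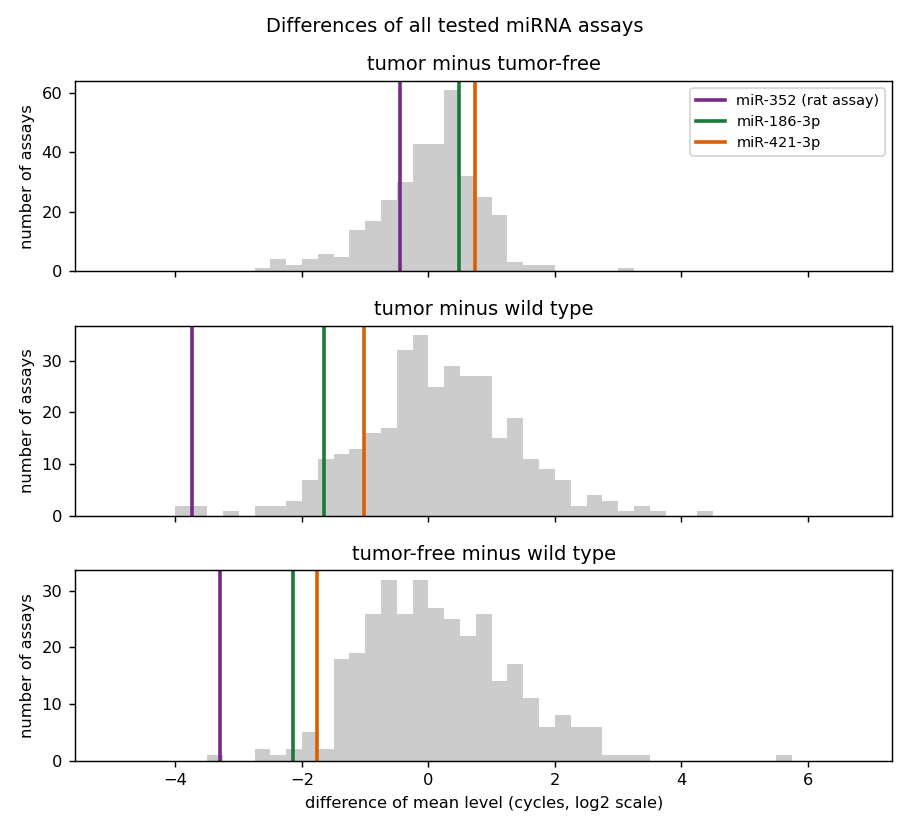
Number of assays (y axis) by difference of mean level (x axis, cycles on a log2 scale) over all 338 tested assays, for tumor minus tumor-free, tumor minus wild type and tumor-free minus wild type. The coloured lines are miR-352, miR-186-3p and miR-421-3p, which lie below 0 against wild type by choice. They sit at the low end there, except miR-421-3p in tumor minus wild type, which was the 54th lowest. Between the transgenic groups they lie within the bulk of assays.

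Between tumor and tumor-free transgenic mice, the members differed in sign and none passed the test. This contrast did not serve to choose them, though it uses the same transgenic sera. miR-352 differed by -0.45 (SE 0.65, 95% interval -1.80 to 0.90, adjusted p = 0.772 in limma): 2 of 7 tumor values lay under the tumor-free range and 1 over it. Without tumor replicate 1 the difference was 0.0044. miR-186-3p differed by 0.49 (SE 0.47, interval -0.50 to 1.48, adjusted p = 0.685 in limma), with 2 of 6 tumor values over the tumor-free range. miR-421-3p differed by 0.74 (SE 0.43, interval -0.16 to 1.64, adjusted p = 0.423 in limma), with 3 of 7 tumor values over that range and 1 under it. Of all assays, 5 of 338 (1.48%) passed in this comparison. The intervals hold differences of over 1 cycle downward for miR-352 and upward for the other 2.

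The spread within the tumor group was wider than within the tumor-free group for all 3 members, but this was not particular to them. The SD was 1.62 in tumor against 0.97 in tumor-free mice for miR-352. It was 1.12 against 0.63 for miR-186-3p and 0.98 against 0.45 for miR-421-3p. In the same order of groups it was 1.46 against 0.55 for miR-186-5p and 1.80 against 0.61 for miR-374b-5p. The let-7 and miR-98 5p strands were also wider in tumor mice, except let-7e-5p (0.74 against 1.16). For the panel mean Ct the SD was 1.18 against 0.83. These differences in spread were not tested. Tumor replicates 4 and 5 were the 2 highest tumor sera for each member. Tumor replicate 1, the serum with the highest panel mean Ct, was the lowest for miR-352 and had no value for miR-186-3p.

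The members were next compared with assays of the same hairpin or transcript, and miR-352 with the let-7 family, which its rat sequence resembles. miR-186-5p, the other arm of the miR-186 hairpin, stood at -1.67 ± 1.46 (n = 7) in tumor, -2.16 ± 0.55 (n = 7) in tumor-free and -0.39 ± 1.15 (n = 3) in wild-type mice. It did not pass the limma test against wild type (difference -1.29, SE 0.72, adjusted p = 0.269 in tumor mice; -1.77, SE 0.72, adjusted p = 0.176 in tumor-free mice). All 7 tumor-free mice and 4 of 7 tumor mice were below every wild-type mouse. Over all assays, 5.92% had every tumor-free value below wild type and 3.85% had every tumor value below it. miR-374b-5p, the neighbour of miR-421, averaged -0.51 ± 1.80 (n = 7) in tumor, 0.28 ± 0.61 (n = 7) in tumor-free and 2.05 ± 1.07 (n = 3) in wild-type mice. Its differences from wild type were -2.56 (SE 0.83, adjusted p = 0.0551 in limma) in tumor and -1.78 (SE 0.83, adjusted p = 0.202) in tumor-free mice, and neither passed. For miR-374b-5p too, all 7 tumor-free mice were below every wild-type mouse, as were 5 of 7 tumor mice. In tumor mice it passed under 7 of 30 alternatives, with adjusted p from 0.0162 to 0.299 in limma.

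Of the 9 let-7 and miR-98 5p strands, all 9 differed from wild type below 0 in tumor mice, with a median of -1.05 against 0.19 over all assays, of which 45.9% were below 0. In tumor-free mice all 9 were below 0 as well, with a median of -0.85 against 0.03 over all assays, of which 49.1% were below 0. In tumor against wild-type mice 1 of them passed, let-7f-5p (difference -3.11, SE 0.92, adjusted p = 0.0419 in limma), where 4.14% of all assays passed as lower. This call was lost under 14 of 30 alternatives (adjusted p from 0.0153 to 0.30 in limma), among them leaving out wild-type replicate 2 (-1.96) and equal hemolysis index (-2.01). In tumor-free against wild-type mice 0 of the 9 passed in limma, where 0.592% of all assays did. The lowest adjusted p of the 9 there was 0.176, for let-7f-5p. let-7f-5p stood at -1.68 ± 1.74 (n = 7) in tumor, -0.79 ± 0.83 (n = 7) in tumor-free and 1.44 ± 2.05 (n = 3) in wild-type mice, and 2 of 7 tumor mice lay above the lowest wild-type mouse. let-7d-5p differed by -1.91 (SE 0.83, adjusted p = 0.166) in tumor and -1.21 (SE 0.83, adjusted p = 0.402) in tumor-free mice. Between tumor and tumor-free mice 8 of the 9 were below 0, with a median of -0.67 against 0.14 over all assays, of which 44.4% were below 0, and 0 passed in limma, with unadjusted p from 0.0944 to 0.855. Each of these 3 comparisons shares mice with the others.

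The X-linked miRNAs other than miR-421-3p lay on both sides of 0. Of 28 tested X-linked miRNAs without an autosomal copy, 8 differed from wild type below 0 in tumor mice and 15 did in tumor-free mice, with medians of 0.50 and -0.19. Over all assays 45.9% and 49.1% were below 0 in the same order, with medians of 0.19 and 0.03. In tumor against wild-type mice 3 rose in limma, miR-503-5p (2.79, SE 0.60, adjusted p = 0.00824), miR-500-3p (2.12, SE 0.41, adjusted p = 0.00776) and miR-362-3p (1.54, SE 0.42, adjusted p = 0.0275), and 0 fell, where 4.14% of all assays passed in each direction. With raw Ct none of the 3 passed, at 2.10, 0.74 and 0.16 in the same order. The list includes miR-98-5p and miR-374b-5p.

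Setting each member against another assay in the same serum removes the panel mean from the measure. This measure was chosen after values had been seen. By the last decimals of the values, taken to mark the plates, miR-352 and miR-186-3p lie on another plate than the let-7 strands and miR-186-5p. Their ratios therefore keep any difference between the plates of a serum, which was not tested. miR-1961 shares the plate of miR-352, and miR-374b-5p that of miR-421-3p. The Ct of the let-7 family mean minus that of miR-352 was -3.50 ± 1.20 (n = 7) in tumor, -3.52 ± 0.89 (n = 7) in tumor-free and -1.10 ± 0.71 (n = 3) in wild-type mice, so relative to them miR-352 was lower than in wild type by 2.40 cycles in tumor and 2.41 cycles in tumor-free mice. All 7 tumor and all 7 tumor-free mice were below every wild-type mouse. Since miR-352 was chosen for lying below wild type, this separation is a description. The share of other assays with such a separation from the let-7 mean was not computed. Against let-7d-5p alone 5 of 7 tumor and 6 of 7 tumor-free mice were below, with differences from wild type of -1.84 and -2.08.

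miR-1961 was set against miR-352 because their levels correlated over these mice, so a small spread of their difference follows from that choice and is a description. The Ct of miR-1961 minus that of miR-352 ranged from -0.77 to 0.21 in tumor mice and from -1.08 to 0.26 in tumor-free mice, with SDs of 0.35 and 0.43 cycles, and it was 3.16, 1.37 and 0.69 in wild-type mice. Every transgenic value was below every wild-type value. This separation is a description too, since miR-352 was chosen for lying below wild type, and no share over other assays was computed. The value of 3.16 was that of wild-type replicate 1, whose miR-1961 level was -3.02. The levels of miR-1961 in wild-type mice ran from -3.02 to 1.34, and its differences from wild type were -1.66 (SE 0.91, adjusted p = 0.258 in limma) in tumor mice and -1.22 (SE 0.91, adjusted p = 0.442) in tumor-free mice.

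The ratio of the arms of miR-186 overlapped among all 3 groups. The Ct of miR-186-5p minus that of miR-186-3p was -3.37 ± 1.48 (n = 6) in tumor, -3.19 ± 0.70 (n = 7) in tumor-free and -2.82 ± 0.57 (n = 3) in wild-type mice. The Ct of miR-374b-5p minus that of miR-421-3p was 0.13 ± 1.53 (n = 7) in tumor, -1.39 ± 0.60 (n = 7) in tumor-free and -1.41 ± 0.18 (n = 3) in wild-type mice. The tumor values were 0.45, 1.14, -1.41, -1.10, 2.79, -1.28 and 0.31. Replicates 1, 2, 5 and 7 lay above every tumor-free mouse. Tumor minus tumor-free was 1.52 cycles (exact two-sided permutation p = 0.0309, adjusted p = 0.154 over the 5 ratios tested), which does not pass. The other 4 ratios had adjusted p = 0.984 in the same exact test.

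**Figure D3:**
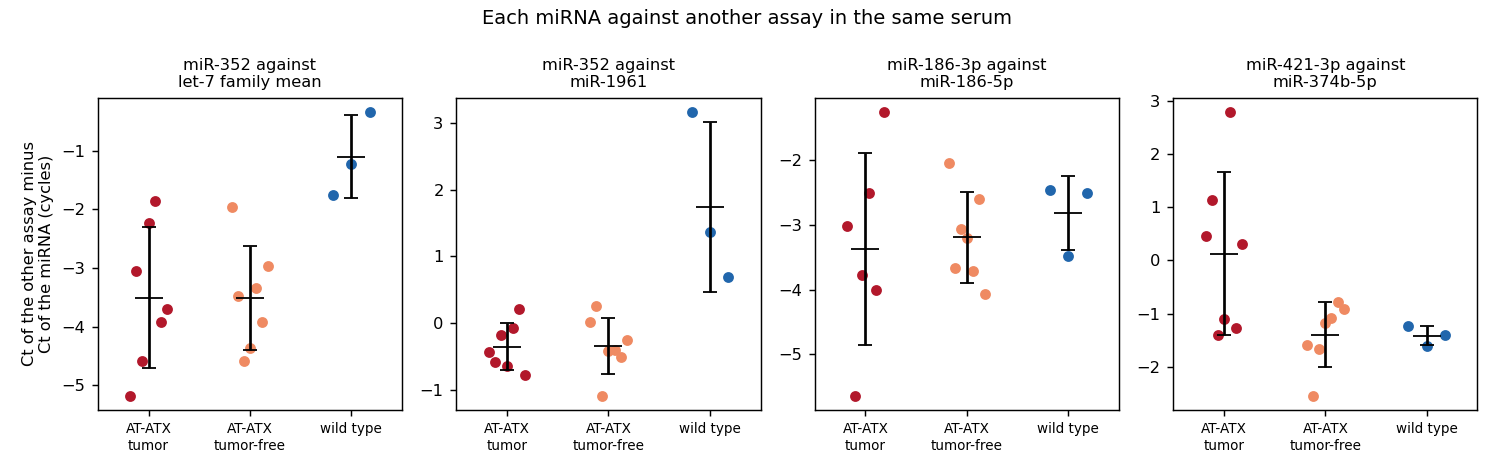
Ct of another assay minus Ct of the member in the same serum (y axis, cycles) in AT-ATX tumor, AT-ATX tumor-free and wild-type mice, for miR-352 against the let-7 family mean and against miR-1961, miR-186-3p against miR-186-5p and miR-421-3p against miR-374b-5p. Points are mice and whiskers 1 SD around the mean; the transgenic groups lie below wild type in the first pair of panels, and 4 tumor points stand above all tumor-free points in the last panel.

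Over the mice, miR-352 was most like miR-7a-1-3p (r = 0.88 over 17 mice, 0.82 with group means taken off), miR-186-3p (0.85 over 16 mice) and miR-1961 (0.85 over 17 mice, 0.91), out of 337 other assays. For miR-186-3p the nearest were miR-352, miR-7a-1-3p (0.85 over 16 mice, 0.67) and miR-15b-3p (0.84, 0.77). miR-421-3p was nearest to miR-30e-5p (0.94 over 17 mice, 0.90), miR-222-3p (0.93, 0.90) and miR-186-5p (0.92, 0.91). Its transcript neighbour miR-374b-5p came 64th for it, at 0.56. These levels share the panel mean of their serum, and the r over all mice includes the group differences by which the members were chosen. miR-352, miR-186-3p, miR-7a-1-3p, miR-1961 and miR-15b-3p belong to the same 120 assays that the last decimals of the values set apart, taken as 1 of the 2 plates, and miR-421-3p, miR-30e-5p, miR-222-3p and miR-186-5p belong to the other.

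With each group's mean taken off, 12 relations of the members were tested by permutation, with p adjusted over the 12. miR-352 and miR-186-3p went together over 16 mice (r = 0.725, permutation p = 0.00423, after adjustment 0.0169). Spearman's rho was 0.64 (permutation p = 0.0131, after adjustment 0.0314), and r was 0.65 when the 2 farthest mice were left out. miR-352 and miR-421-3p did so over 17 mice (r = 0.70, permutation p = 0.00872, after adjustment 0.0262; rho = 0.67, with permutation p = 0.00803 and 0.0241 after adjustment), though r was 0.47 when the 2 farthest mice were left out. miR-186-3p and miR-421-3p did not pass (r = 0.56, permutation p = 0.0785, after adjustment 0.138; rho = 0.515, with permutation p = 0.104; r = 0.53 when the 2 farthest were left out). For this last pair r was 0.67 within the tumor group alone and -0.0056 within the tumor-free group alone. On raw Ct, which keeps what all assays of a serum share, the 3 pairs of members passed by r. In the same order r was 0.85, 0.87 and 0.85 (adjusted permutation p = 0.00245, 0.00012 and 0.0016).

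Of the other assays, the let-7 family mean passed with miR-352 by rank and not by r (r = 0.65, permutation p = 0.021, after adjustment 0.0503; rho = 0.68, with permutation p = 0.00707 and 0.0241 after adjustment). Its r was 0.71 when the 2 farthest mice were left out. The arms of miR-186 did not pass (r = 0.43, permutation p = 0.204, after adjustment 0.272; rho = 0.47, with permutation p = 0.123; r = 0.41 when the 2 farthest were left out). Neither did miR-421-3p with miR-374b-5p (r = 0.57, permutation p = 0.0805, after adjustment 0.138; rho = 0.53, with permutation p = 0.0883; r = 0.28 when the 2 farthest were left out). On raw Ct, which keeps what all assays of a serum share, all 3 relations passed by r, at 0.84, 0.70 and 0.71 (adjusted permutation p = 0.0016, 0.0178 and 0.02).

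Red blood cell miRNAs were set beside the members. All 6 of the list, which includes miR-15b-3p, were below 0 against wild type in both transgenic groups. Their median differences were -0.73 for tumor and -1.24 for tumor-free mice, and none passed in limma (adjusted p from 0.187 to 0.754). Over all assays, 45.9% were below 0 in tumor and 49.1% in tumor-free mice, with medians of 0.19 and 0.03. The mean level of the list ranged from 5.10 to 8.05 in tumor, 5.42 to 7.08 in tumor-free and 6.34 to 8.23 in wild-type mice. The hemolysis index, for which the Ct of miR-451a is taken from that of miR-23a-3p, ranged from 2.21 to 7.09 cycles in tumor, 3.56 to 5.54 in tumor-free and 3.71 to 7.82 in wild-type mice, with wild-type replicate 2 at the top. Within groups it went with miR-352 over 17 mice (r = 0.78, permutation p = 0.00127, after adjustment 0.00762; rho = 0.77, with permutation p = 0.00114 and 0.0137 after adjustment). It also went with miR-421-3p (r = 0.86, permutation p = 0.00108, after adjustment 0.00762; rho = 0.76, with permutation p = 0.00552 and 0.0241 after adjustment). When the 2 farthest mice were left out, r was 0.65 and 0.75. For miR-186-3p it did not pass (r = 0.505, permutation p = 0.108, after adjustment 0.162; rho = 0.50, with permutation p = 0.106; r = 0.28 when the 2 farthest were left out). On raw Ct no member passed, with r of 0.48 for miR-352, 0.042 for miR-186-3p and 0.40 for miR-421-3p (adjusted permutation p = 0.13, 0.899 and 0.237). Within the tumor group alone r was 0.81 for miR-352, 0.48 for miR-186-3p and 0.91 for miR-421-3p, and within the tumor-free group alone 0.53, 0.44 and 0.53. The panel mean Ct had r of -0.15 with miR-352, -0.23 with miR-186-3p and 0.11 with miR-421-3p (permutation p from 0.408 to 0.719), with rho of 0.015, -0.19 and 0.037 (permutation p from 0.486 to 0.963).

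At equal hemolysis index, the difference from wild type was -2.69 (SE 0.60) for miR-352, -1.30 (SE 0.56) for miR-186-3p and -0.34 (SE 0.37) for miR-421-3p in tumor mice. In tumor-free mice it was -2.50 (SE 0.59), -1.82 (SE 0.53) and -1.24 (SE 0.36) in the same order of assays. miR-421-3p in tumor mice was thus the 1 difference that came within 1 SE of 0. Between tumor and tumor-free mice, miR-421-3p differed by 0.91 at equal index (adjusted p = 0.0522 in limma).

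**Figure D4:**
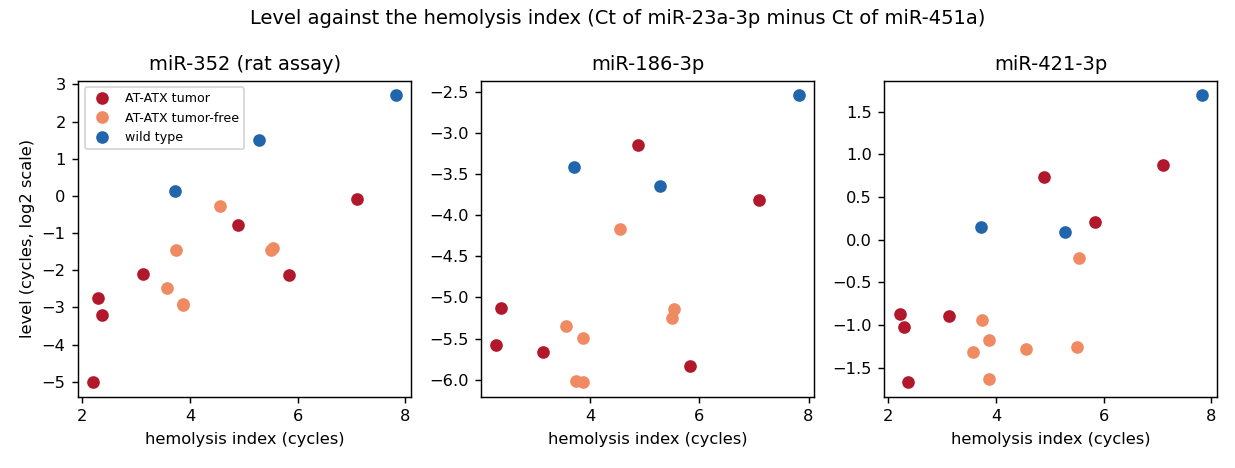
Level of each member (y axis, cycles on a log2 scale) against the hemolysis index of the same serum (x axis, cycles), with points for AT-ATX tumor, AT-ATX tumor-free and wild-type mice. At a like index the wild-type points of miR-352 stand above the transgenic points, while those of miR-421-3p lie near the tumor points.

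The differences from wild type were below 0 under every scaling run, and their size moved with it. Without centring, the median difference of all assays was -1.22 in tumor and -1.07 in tumor-free mice, and relative to that median miR-352 was at -3.91 and -3.25, miR-186-3p at -1.50 and -2.10 and miR-421-3p at -1.19 and -1.71. On raw Ct, 13 of 14 transgenic mice were below all wild-type mice for miR-352, with tumor-free replicate 1 the exception. On that scale the counts were 10 of 13 for miR-186-3p and 9 of 14 for miR-421-3p. With spike-ins they were 14 of 14 for miR-352, 10 of 13 for miR-186-3p and 9 of 14 for miR-421-3p. With reference miRNAs they were 14 of 14, 12 of 13 and 14 of 14 in the same order of assays.

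**Figure D5:**
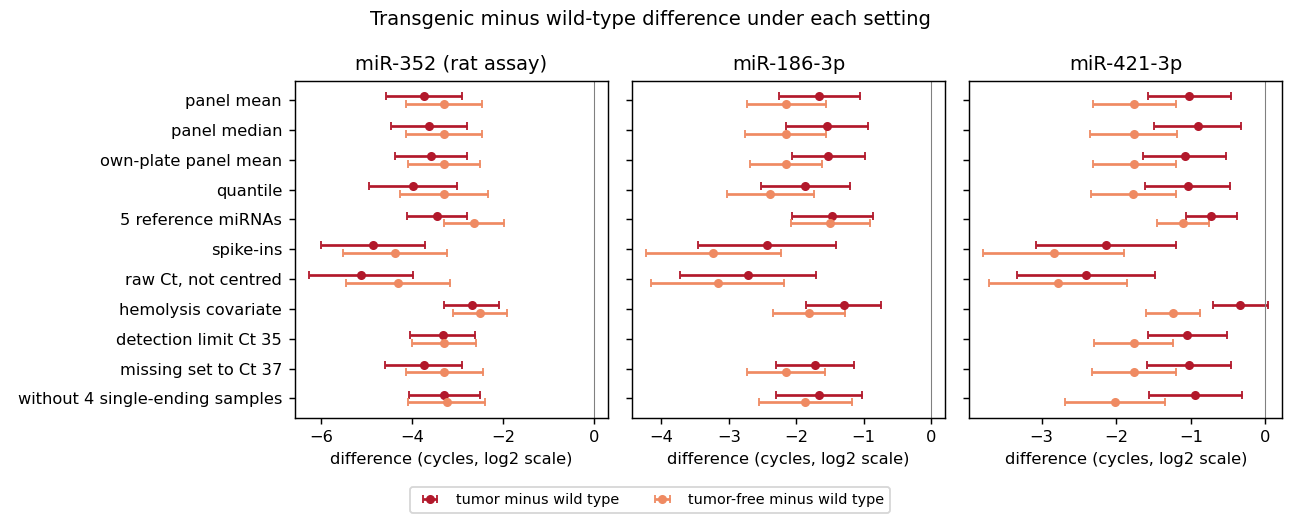
Difference from wild type (x axis, cycles on a log2 scale; whiskers are 1 SE) of each member in tumor and tumor-free mice under the panel mean and other settings (y axis). All points lie left of 0, with the spike-in and raw Ct points farthest out, and miR-421-3p in tumor mice comes nearest to 0 at equal hemolysis index; miR-186-3p has no point at a limit of Ct 35, where too few sera were detected.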

How the data were processed

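The deposited table holds quantification cycles (Ct) of 357 miRNA assays and 8 control assays in 17 sera, not normalized per the file's name. Per the labels' protocols, RNA from 50 µL of serum was reverse transcribed and measured by SYBR Green PCR over 40 cycles on 2 serum panels. Threshold, calibration and detection limit are not given in the sources used here. Empty cells were taken as not detected. Depth does not apply to Ct, and the number of mice limits precision.

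Levels (panel mean Ct minus own Ct) entered 1 limma fit (version 3.58.1, R 4.3.3) with 3 groups. Assays with values in 2 or more wild-type and 5 or more mice of each transgenic group were tested, 338 in all, with Benjamini-Hochberg adjustment and a threshold of 0.05. limma was tested on simulated data. Correlations used 100000 permutations within groups, and ratios the exact permutation test (Python 3.11.15, scipy 1.17.1). Members, lists and the named assays (hairpin and transcript partners, the let-7 family and the 3 nearest patterns per member, over at least 12 mice) were chosen with earlier results of these data known. The X-linked list counts either arm. Alternatives were other centrings, detection limits, filters, variance settings, the hemolysis index as covariate and each mouse left out.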

Additional observations from a re-analysis of the deposited data

Results flagged for a closer look

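Of 32 groups of values looked at for the members, their relatives, the hemolysis index and the panel mean Ct, 1 value stood apart from its group. The level of let-7a-5p in tumor-free replicate 2 was 3.97, while the other 6 tumor-free mice lay between 2.60 and 3.18. Its gap over the range was 0.578, above the critical value of 0.568 for 7 mice. Chance marks about 5% of groups.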

How the results depend on the processing

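The labels give no replicate numbers, but 3 animal numbers recur over 8 transgenic mice, with no stated meaning. With that number as a random replicate block, added after seeing the data (limma, consensus correlation 0.070), tumor minus tumor-free was -0.41 for miR-352, 0.50 for miR-186-3p and 0.76 for miR-421-3p, 6 assays passed in place of 5, and no member's call changed. Differences of the 3 members from wild type stayed below 0 under all alternatives run, each mouse left out included. With raw Ct they were -5.13 (miR-352), -2.72 (miR-186-3p) and -2.40 (miR-421-3p) for tumor and -3.17 (miR-186-3p) and -2.78 (miR-421-3p) for tumor-free mice, and with spike-ins -2.14 (miR-421-3p, tumor), -3.23 (miR-186-3p, tumor-free) and -2.84 (miR-421-3p, tumor-free). Between tumor and tumor-free mice no member passed under any alternative, the nearest being miR-421-3p at equal hemolysis index (adjusted p = 0.0522 in limma). Leaving out each mouse, miR-352 ranged from -0.82 to 0.0044 there, above 0 without tumor replicate 1. The count of assays passing between tumor and tumor-free mice was 5. It was 0 with raw Ct, spike-ins, reference miRNAs, exact permutation and without the 4 sera whose values share 1 decimal ending, 13 with the hemolysis index as covariate, and 2 to 10 when each mouse was left out. The count with all transgenic mice below wild type was 5, against 3 with spike-ins, 9 by quantiles and 5 to 14 when each mouse was left out, the count being 10 if wild-type replicate 1 and 14 if wild-type replicate 2 was dropped. The r with the panel mean Ct turned sign for miR-352 without the 2 farthest mice (0.054) and for miR-421-3p with raw Ct (-0.79) and spike-ins (-0.77). Ratios chosen after seeing the data changed sign when each mouse was left out for miR-352 against the let-7 mean (-0.26 to 0.29) and miR-1961 (-0.13 to 0.090), and for the miR-186 arms (-0.60 to 0.28). The mean over each assay's own plate set was also added after seeing the data. miR-186-3p could not be tested at a limit of Ct 35. Causes of these changes were not tested. With 3 wild-type mice and 1 strain label only for them, transgene, strain background and handling cannot be told apart.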
